A study of Mus musculus with 12 samples.

Results

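The proteins of the cytosolic ribosome were followed at the mRNA level in the gastrocnemius of the mouse, a calf muscle. They were taken as every gene whose symbol has the form Rpl or Rps with a number, with or without the endings a, l, x or l1, together with Rplp0, Rplp1, Rplp2 and Rpsa. A gene entered where an array probe set, a group of short probes against one transcript, named that gene alone. Of 18194 genes measured, 48 met the rule, 26 of the large (60S) and 22 of the small (40S) subunit. A further 28 ribosomal protein genes, among them Rpl3, Rplp1, Rpl10 and Rpl36a, were read by 110 probe sets that also name other loci, mostly pseudogenes, and are not among the 48. The muscle form Rpl3l is therefore described without a value for Rpl3.

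Gene expression had been measured on 12 arrays in 4 groups of 3. WT_young and KO_young were mice of 10 weeks, and WT_old and KO_old mice of 24 months. All were labelled as C57Bl/6N/6J/129 mice. The knock-out groups carried a deletion of Ppargc1a in muscle by a myogenin-driven cre; this gene makes PGC-1alpha, a coactivator of mitochondrial genes. Myogenin is made by differentiating muscle cells, so the other cells of a whole muscle are not its target, and their RNA was measured along with that of the fibres. An array is named by its group and a replicate number, which carries no order.

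Each ribosome holds a single copy of nearly every ribosomal protein, with the stalk proteins as the exception, and a cell keeps their mRNAs in step. Many of these mRNAs open with a run of pyrimidines, the 5′ terminal oligopyrimidine tract or TOP, through which mTORC1 signalling controls their translation. In skeletal muscle, building ribosomes goes with growth and with regeneration, and some proteins of the ribosome have a paralogue that a tissue uses in their place, such as Rpl3l in heart and skeletal muscle.

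Promoter sequences are shown because the 48 genes are known for a shared start architecture and because most of them differed in the same direction in old knock-out muscle. RefSeq (GRCm38.p6) held a window of 250 bases before to 50 bases after a transcription start for 42 of the 48 genes, 50 windows in all. The letters CTTTCC are like the pyrimidine run at which these genes start, but were counted at any position in the window. They stood on the gene's strand in 36.0% of the 50 windows and in 14.1% of all 32851 windows of that length. On the opposite strand the shares were 14% and 14.4%. The letters CCGGAAG, the core bound by ETS-family factors such as GABP, stood on either strand in 40.0% and 8.86%. In no window of the 48 genes did a match of one overlap a match of the other. Each stretch below runs 5′ to 3′ along the gene, with 60 bases before the start and 20 from it, and matches of either motif are in capitals. Rpl13a (chr7:45128726-45128805, minus strand), Rpl6 (chr5:121204441-121204520, plus strand) and Rps19 (chr7:24884532-24884611, plus strand) rose with age in knock-out muscle, as did Rpl4 (chr9:64173327-64173406, plus strand). Rpl3l (chr17:24727766-24727845, plus strand) had the opposite sign from most of the others.

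Rpl13a: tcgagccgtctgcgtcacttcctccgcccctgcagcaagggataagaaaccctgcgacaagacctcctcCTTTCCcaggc

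Rpl4: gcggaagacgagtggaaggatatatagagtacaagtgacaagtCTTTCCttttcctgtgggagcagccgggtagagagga

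Rpl6: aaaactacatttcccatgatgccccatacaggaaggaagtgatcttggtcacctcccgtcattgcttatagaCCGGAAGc

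Rps19: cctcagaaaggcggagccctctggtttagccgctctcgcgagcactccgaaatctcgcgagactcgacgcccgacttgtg

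Rpl3l: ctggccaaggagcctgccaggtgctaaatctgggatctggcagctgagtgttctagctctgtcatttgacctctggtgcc

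In these stretches Rpl13a held CTTTCC after its start and Rpl4 before it, and Rpl6 held CCGGAAG after its start. The stretches of Rps19 and Rpl3l held neither string. Among the other genes that rose and had such a stretch, Rps15, Rplp0, Rpl10a, Rpl22, Rps18 and Rps3 held neither, and Rpl11 and Rpl41 held CCGGAAG. Whether the letters go with the differences was not tested. The table lists other starts for Rps19 and Rpl3l, and a missing match says only that these letters are not in the stretch.

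The values are log2 signals, so a difference of 1 is a doubling of signal. Differences are given ± SE from a limma fit to all 12 arrays, and "rose" or "fell" is used of genes with a Benjamini-Hochberg adjusted p under 0.05 over the 18194 genes. The 48 genes lay high on the array scale. Of them 36 averaged at least log2 13, 12 averaged under it (the highest at 10.5), and Rps16 and Rpl39l lay under log2 6.22, the median of all probe sets, where signal is mostly background. Rps29 (15.1), Rplp0 (14.7) and Rps24 (14.7) gave the highest signals and Rps16 (4.08), Rpl39l (4.83) and Rpl14 (6.57) the lowest. These figures describe the probe sets, since the signal of a probe set depends on its probes, and they give no order of mRNA abundance.

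Array medians lay between 6.19 and 6.25, replicate arrays correlated at 0.9885 to 0.9957, and all 10 muscle fibre markers stood above the 6.22 level. Signal of Ppargc1a, the targeted gene, did not drop with the knock-out label: knock-out minus wild-type was 0.53 ± 0.23 in young (adjusted p = 0.41) and 0.29 ± 0.23 in old muscle (adjusted p = 0.506), and all 5 of its probe sets had a positive difference in both. Which exons were removed is not stated in the sources used here, so a probe set outside them would check nothing, and "knock-out" stands throughout for arrays with that label. Among the arrays, KO_old 1 and WT_young 1 stood apart. KO_old 1 had the lowest weight in limma's array weighting (0.282), and WT_young 1 had a lymphocyte marker score of 0.84 against -0.41 and -0.43 in the other WT_young arrays. The main results are also given without them, as are some of the counts of the gene lists.

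Old knock-out muscle had the highest ribosomal protein mRNA signals of the 4 groups. For each array, the median over the 48 genes of the signal minus the WT_young mean was -0.01 to 0.00 in WT_young, 0.00 to 0.09 in KO_young, 0.03 to 0.05 in WT_old and 0.22 to 0.36 in KO_old. The group means of this median were -0.0030 ± 0.0057 (SD, n = 3), 0.051 ± 0.043, 0.042 ± 0.014 and 0.298 ± 0.072. KO_young and WT_old differed by less than the spread within KO_young, whereas every KO_old array lay above every other array. KO_old had the highest group mean in 42 of the 48 genes, and in 33 of them all 3 KO_old arrays exceeded the other 9 arrays. The matching shares over all genes were not counted, so these figures describe the 48 genes only. Over the large-subunit and the small-subunit genes alone, the KO_old means were 0.297 and 0.296.

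**Figure D1:**
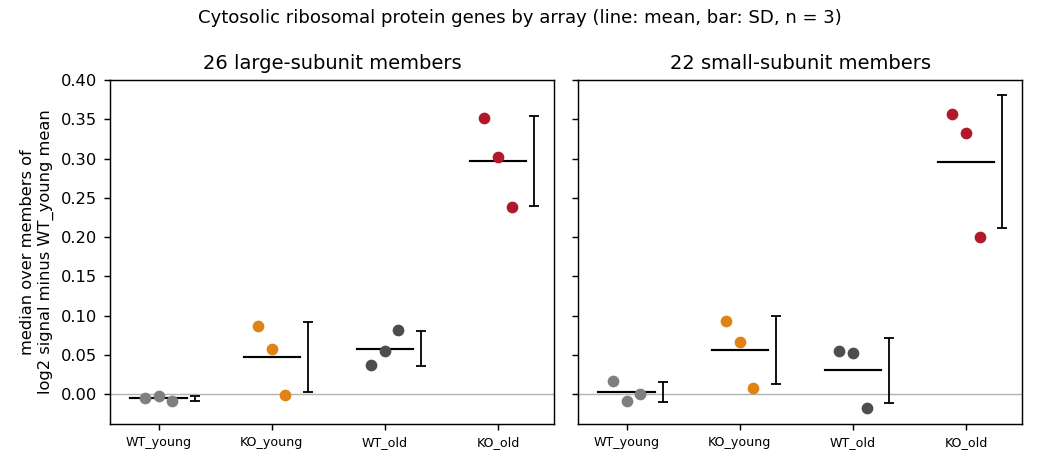
Median over the 26 large-subunit (left) and 22 small-subunit (right) genes of the log2 signal minus the WT_young mean, 1 point per array, with the group mean as a line and the SD (n = 3) as a bar. The KO_old arrays lie between 0.20 and 0.36 in both panels, above the other 9 arrays.

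In old muscle, 44 of the 48 genes had higher signal in the knock-out than in the wild type (91.7%, against 46.1% of all genes). The median difference was 0.24, a 1.18-fold ratio, against a median of -0.02 over all genes, and it was 0.24 for each subunit. In 36 genes the 3 KO_old arrays all exceeded the 3 WT_old arrays (75% of the 48, against 10.6% of all genes), and in 1 gene, Rpl3l, they all lay below (2.08% against 13.2%). Only Rps19 passed the test across all genes (2.08% of the 48, against 0.473% of all genes called higher), while 35 were higher at an unadjusted p under 0.05, against 9.27% of all genes.

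Rps19 is a small-subunit protein needed to mature the 18S rRNA and is the gene most often mutated in Diamond-Blackfan anaemia. It read 12.89, 12.88 and 12.86 in WT_young, 12.98, 12.94 and 12.79 in KO_young, 12.97, 13.04 and 12.91 in WT_old and 13.67, 13.48 and 13.25 in KO_old. The KO_old arrays were the highest 3 of 12. WT_old lay above WT_young without overlap, and KO_young overlapped both. Rps19 rose by 0.50 ± 0.10 in old knock-out against old wild-type muscle (1.41-fold, limma adjusted p = 0.0446). Over the alternatives its difference ranged from 0.39 to 0.60 and its adjusted p from 0.00861 to 0.184. The call was kept in 8 of 23 of them. Without KO_old 1 and WT_young 1 the difference was 0.39 (adjusted p = 0.10).

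Next in order by p, none of them past the threshold, came Rps4l, described with the paralogues, and then Rpl22, Rpl13a and Rps25. Rpl22, a large-subunit protein that binds RNA outside the ribosome as well, read 13.90, 13.93 and 13.89 in WT_old and 14.23, 14.25 and 14.17 in KO_old. Its young arrays lay between 13.82 and 13.94, so KO_old stood alone, with a difference of 0.31 ± 0.07 (adjusted p = 0.0598). Rpl13a, which also takes part in silencing inflammatory mRNAs as a member of the GAIT complex, read 14.41, 14.42 and 14.35 in WT_old and 14.70, 14.70 and 14.63 in KO_old. All 3 KO_old values were again above all others, and the difference was 0.28 ± 0.07 (adjusted p = 0.0721). Rps25, a small-subunit protein used in internal initiation, had its values further apart. It read 8.37, 8.15 and 8.34 in WT_old and 9.48, 8.71 and 8.71 in KO_old, with a difference of 0.68 ± 0.17 (adjusted p = 0.0783) that was 0.42 without KO_old 1, the array well above the rest.

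**Figure D2:**
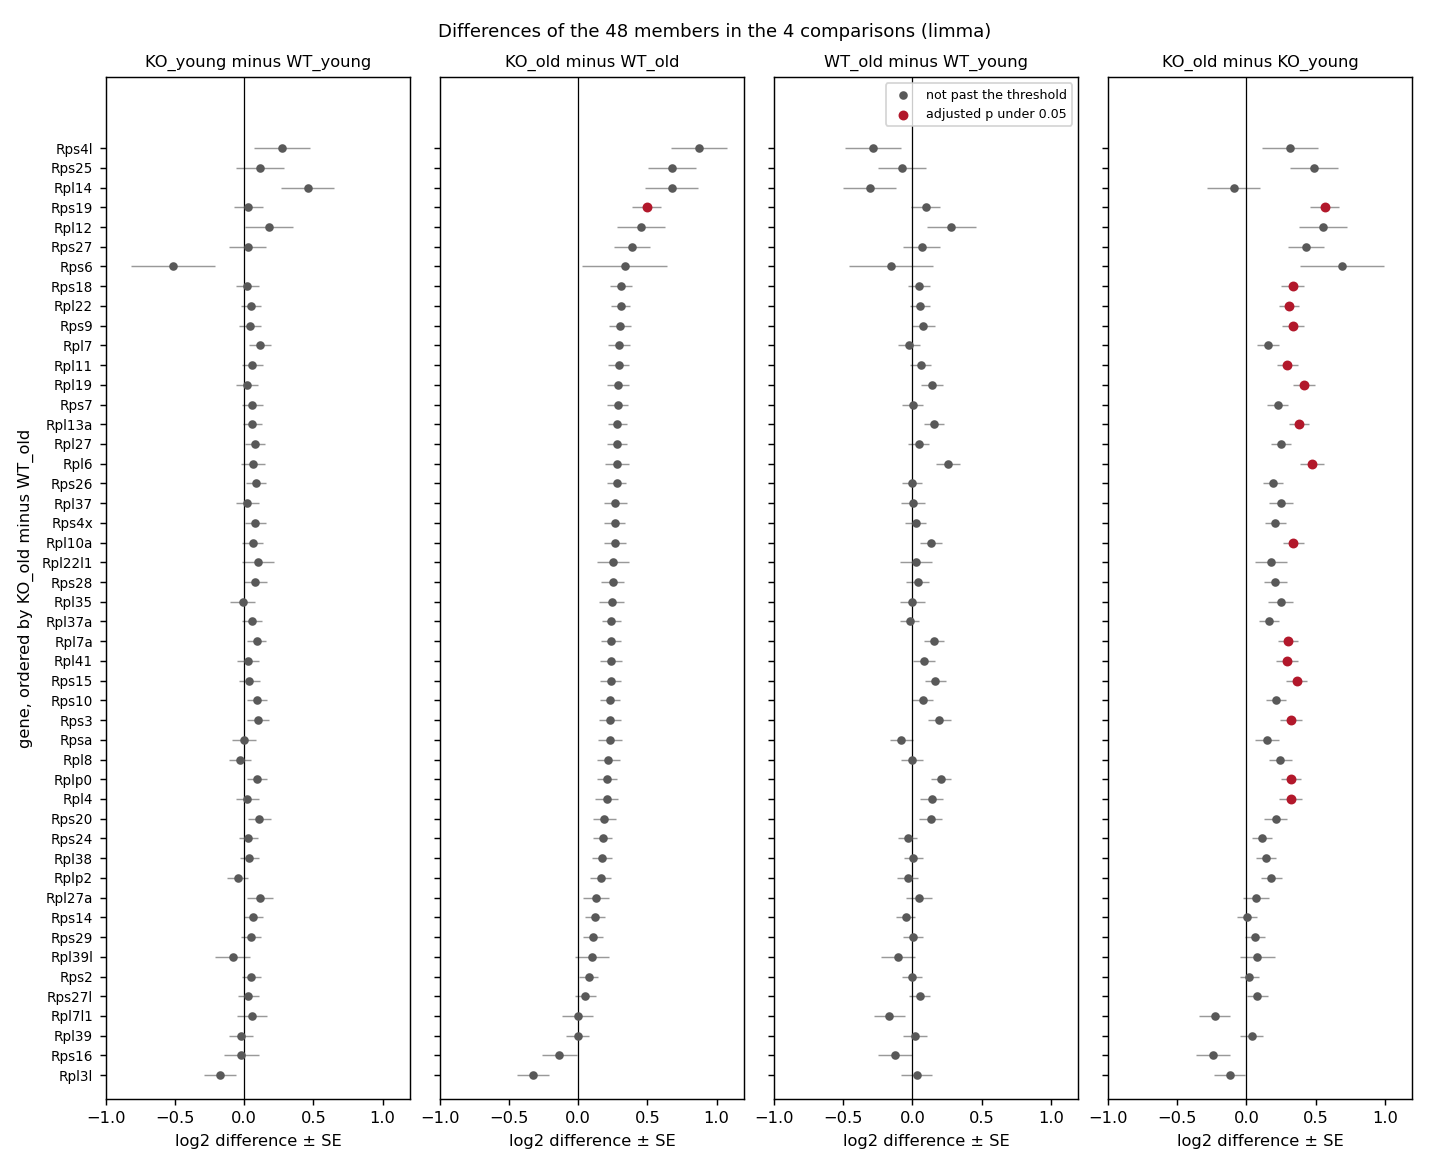
Log2 differences (points) ± SE (lines) of the 48 genes in the 4 comparisons, ordered by KO_old minus WT_old, with genes of adjusted p under 0.05 in red. In the panels with KO_old most genes lie right of 0 (44 of 48 in each), with 1 and 15 genes past the threshold, and in the other panels none passed.

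Among the paralogues, Rpl3l had the largest difference against the direction of most ribosomal protein genes in old muscle. The genotype difference of Rpl7l1 there was -0.00, and those of Rpl22l1, Rps27l, Rps4l and Rpl39l were positive. Of the other genes, Rps16 (-0.14, under the 6.22 level) and Rpl39 (-0.01) also had negative differences. Rpl3l, the striated-muscle form that takes the place of Rpl3 near the peptidyl transferase centre, read 13.71, 13.84 and 13.76 in WT_young, 13.65, 13.61 and 13.53 in KO_young, 13.76, 13.82 and 13.84 in WT_old and 13.17, 13.61 and 13.65 in KO_old. Every knock-out array was below every wild-type array, in both ages. The differences were -0.17 ± 0.11 in young (adjusted p = 0.588) and -0.33 ± 0.11 in old muscle (adjusted p = 0.156), and neither passed. Without KO_old 1 and WT_young 1 they were -0.20 and -0.18, with adjusted p of 0.229 and 0.279. No probe set names Rpl3 alone, so the balance of the pair was not measured.

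Rpl22l1, the paralogue of Rpl22, read 13.29, 13.51 and 13.28 in WT_old and 13.80, 13.50 and 13.53 in KO_old, and the groups overlapped (0.25 ± 0.12, adjusted p = 0.263). Rps27l, a paralogue of Rps27 induced by p53, read 13.19, 13.19 and 13.13 in WT_old and 13.14, 13.26 and 13.28 in KO_old, also with overlap (0.05 ± 0.08, adjusted p = 0.736). Rps27 itself had 7.39, 7.34 and 7.29 in WT_old and 7.98, 7.85 and 7.36 in KO_old, with 1 KO_old array inside the WT_old range (0.39 ± 0.13, adjusted p = 0.149). None of these 3 differences passed.

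Rps4l, a paralogue of Rps4x, had the largest difference of the 48 genes in old muscle. It read 6.88, 6.16 and 6.41 in WT_old and 7.58, 7.33 and 7.15 in KO_old, without overlap, at signals not far above the 6.22 level (0.87 ± 0.20, adjusted p = 0.0584). Its WT_young arrays (6.83, 6.52 and 6.95) overlapped WT_old, and its KO_young arrays (6.74, 7.36 and 7.02) overlapped both old groups. Rps4x differed by 0.26 ± 0.08 (adjusted p = 0.0993) on its bright probe set. Its other probe set, at log2 6.36, had a difference of -0.37, so the mean of the pair was -0.05. Rpl7l1, a nucleolar relative of Rpl7, differed by -0.00 ± 0.11 (adjusted p = 0.984), and Rpl7 by 0.29 ± 0.08 (adjusted p = 0.0867). Rpl39 differed by -0.01 ± 0.09 and its paralogue Rpl39l, under the 6.22 level, by 0.10 ± 0.13.

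With age in knock-out muscle, 15 of the 48 genes rose and 0 fell (31.2%, against 4.85% of all genes called higher and 5.41% lower). Of these, 10 were large-subunit and 5 small-subunit genes. The median difference of the 48 was 0.24 (1.18-fold), with 0.25 for the large and 0.21 for the small subunit, against -0.00 over all genes. At an unadjusted p under 0.05, 31 were higher (64.6%, against 12% of all genes). Differences above 0 were seen in 44 genes (91.7%, against 49% of all genes), and KO_old lay wholly above KO_young in 34 (70.8%, against 13.8%). This comparison shares the KO_old arrays with the genotype comparison in old muscle, so the counts of one are no second measurement of the other.

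**Figure D3:**
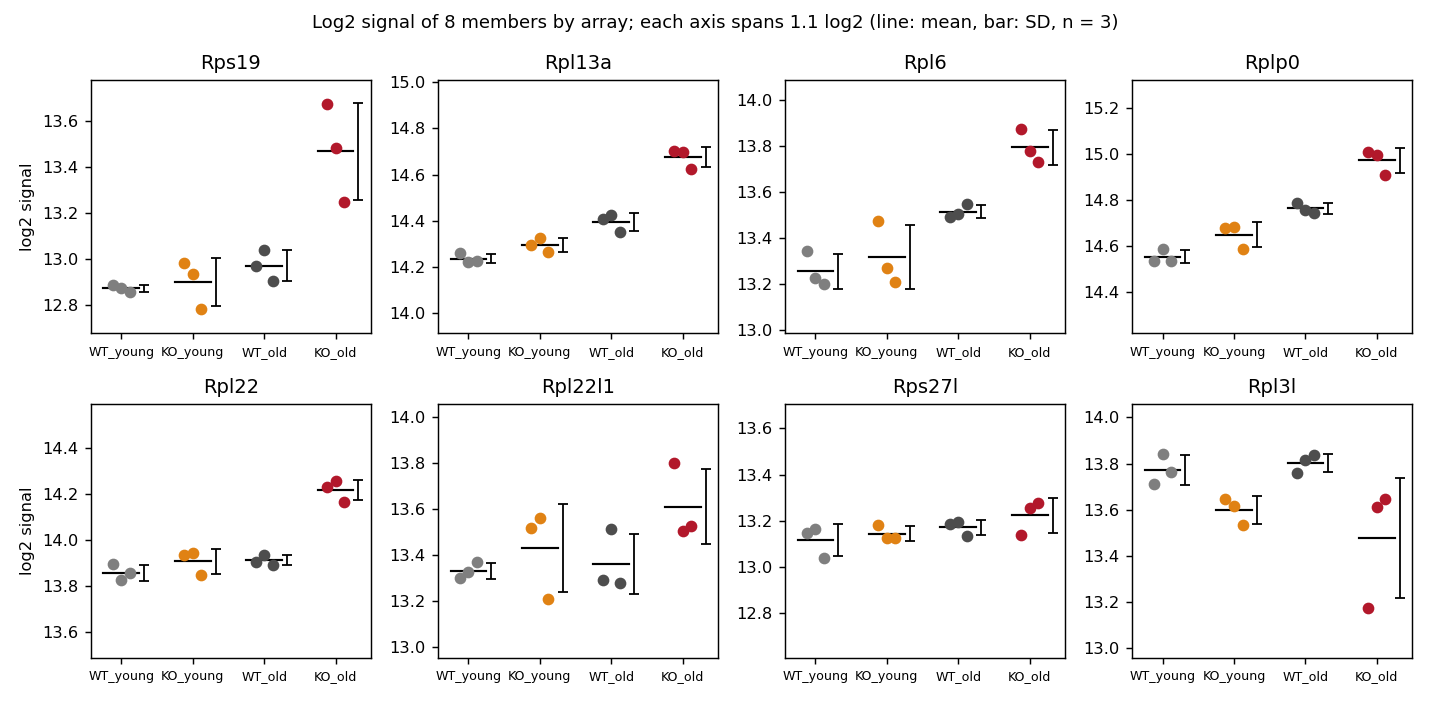
Log2 signal of 8 genes in each array (points), with the group mean as a line and the SD (n = 3) as a bar, and every axis spanning the same log2 range. KO_old is the highest group for all but Rpl3l, where its mean is the lowest, and the KO_old arrays overlap other groups for Rpl22l1 and Rps27l.

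The smallest p belonged to Rpl13a, which read 14.26, 14.22 and 14.23 in WT_young, 14.29, 14.32 and 14.26 in KO_young and 14.70, 14.70 and 14.63 in KO_old. It rose by 0.38 ± 0.07 (1.30-fold, adjusted p = 0.0060). Rps19 rose by 0.57 ± 0.10 (1.48-fold, adjusted p = 0.0062), from the values given above. Both had KO_old arrays clear of all KO_young arrays.

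Rpl6, a large-subunit surface protein, read 13.34, 13.22 and 13.20 in WT_young, 13.47, 13.27 and 13.21 in KO_young, 13.49, 13.50 and 13.55 in WT_old and 13.87, 13.78 and 13.73 in KO_old. The old arrays were above the young arrays in each genotype, and KO_old was above WT_old. The rise in knock-out muscle was 0.48 ± 0.09 (adjusted p = 0.0064). Rpl19, which reaches across to the small subunit, rose by 0.41 ± 0.08 (adjusted p = 0.0078). Its KO_old arrays (13.87, 13.74 and 13.66) did not overlap its KO_young arrays (13.42, 13.29 and 13.33).

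Rplp0, the scaffold of the stalk that recruits elongation factors, read 14.54, 14.59 and 14.54 in WT_young, 14.68, 14.68 and 14.59 in KO_young, 14.79, 14.76 and 14.75 in WT_old and 14.91 to 15.01 in KO_old. These groups did not overlap except WT_young and KO_young, which touched at 14.59. Rplp0 rose by 0.32 ± 0.07 with age in knock-out muscle (adjusted p = 0.0156). Rplp2, a stalk protein that dimerises with Rplp1, had 0.18 ± 0.08 (adjusted p = 0.165). The other 10 genes that rose had differences of 0.29 to 0.36. In the small subunit these were Rps15 (0.36) and Rps18 (0.33) of the head, Rps9 (0.34), which sits by the decoding region, and Rps3 (0.32) at the mRNA entry. In the large subunit they were Rpl10a (0.34), Rpl4 (0.32), Rpl22 (0.31), Rpl7a (0.30), Rpl11 (0.30), which binds Mdm2 together with Rpl5 and 5S rRNA, and Rpl41 (0.29), the smallest ribosomal protein. Their adjusted p ran from 0.0104 to 0.0333.

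The number that rose depended on the arrays and on how the spread was estimated. It was 4 without KO_young 3, 8 without KO_young 2, 10 without KO_old 1, 10 without KO_old 2, and 9 without KO_old 1 and WT_young 1. Over all genes, in either direction, limma called 833, 965, 1335, 1637 and 1341 in these fits, against 1868 as reported. The number of the 48 was 0 when only the KO_young and KO_old arrays entered the fit (25 at an unadjusted p under 0.05). There limma called 617 of all genes, and the share of all genes matching the 25 was not counted. The median stayed between 0.19 and 0.26 whichever single array was left out. Rps9, Rpl41 and Rps3 lost their calls on other choices of probe set: Rps9 had 0.17 (adjusted p = 0.591) and Rpl41 0.05 (adjusted p = 0.906) without probe sets of the maker's _x_at and _s_at classes, which can match several transcripts, and Rps3 had 0.07 (adjusted p = 0.627) as the mean of its probe sets.

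Rps6, the small-subunit protein phosphorylated by S6 kinase below mTORC1, had the widest spread of the 48 genes. It read 8.46, 8.48 and 8.60 in WT_young, 7.99, 8.24 and 7.77 in KO_young, 8.68, 8.73 and 7.68 in WT_old and 8.46, 9.41 and 8.22 in KO_old. The young groups did not overlap and the old groups did. Its differences were -0.51 ± 0.30 for genotype in young muscle (adjusted p = 0.551), 0.33 ± 0.30 for genotype in old muscle (adjusted p = 0.57) and 0.69 ± 0.30 for age in knock-out muscle (adjusted p = 0.179), and none passed. Without WT_old 3 or without KO_old 2 the genotype difference in old muscle was -0.01 or -0.02. Without KO_old 2 the age difference in knock-out muscle was 0.34 (adjusted p = 0.488). Rpsa, the laminin-receptor protein of the small subunit, differed by 0.23 ± 0.09 for genotype in old muscle (adjusted p = 0.181) and 0.15 ± 0.09 for age in knock-out muscle (adjusted p = 0.31).

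In young muscle, the knock-out and wild-type groups were close. None of the 48 genes passed (limma, against 0.192% of all genes in either direction and 0.0385% higher), and 1 gene was higher at an unadjusted p under 0.05 (2.08%, against 4.96% of all genes), Rpl14 (0.46 ± 0.19, adjusted p = 0.391). The median difference was 0.05 against -0.01 over all genes, and 39 genes were above 0 (81.2%, against 47.9%). KO_young lay wholly above WT_young in 10 genes (20.8%, against 10.7%) and wholly below in Rpl3l and Rps6 (4.17%, against 10.1%). Rpl14, at a low signal, read 6.44, 6.23 and 6.65 in WT_young, and all 3 KO_young arrays read 6.79 or more, without overlap.

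With age in wild-type muscle, none of the 48 genes passed either (limma, against 1.65% of all genes called higher and 1.97% lower), and 5 were higher at an unadjusted p under 0.05 (10.4%, against 7.92% of all genes). These were Rpl6 (0.26 ± 0.09, adjusted p = 0.144), Rplp0 (0.21 ± 0.07, adjusted p = 0.146), Rps3 (0.19), Rpl13a (0.16) and Rps15 (0.17). All 5 are also among the genes that rose in knock-out muscle. The age comparisons of the genotypes share no array, but they share each gene's estimate of the spread from the 12 arrays. The overlap is therefore not independent, and its share over all genes was not counted. The median difference was 0.03 against 0.00 over all genes, and 31 genes were above 0 (64.6%, against 50.5%). WT_old lay wholly above WT_young in 15 genes (31.2%, against 12.8%) and wholly below in Rps24 (2.08%, against 13.5%).

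The interaction asks whether the genotype difference in old muscle exceeded that in young muscle. No gene of the 18194 passed it in the limma fit (0% called), so none of the 48 did, and 8 of the 48 were positive at an unadjusted p under 0.05 (16.7%, against 2.71% of all genes). The median over the 48 was 0.20 (1.15-fold, against -0.01 over all genes), and 45 were above 0 (93.8%, against 48.2%). Rps19 had the smallest p (0.47 ± 0.15, unadjusted p = 0.0081, adjusted p = 0.871), followed by Rpl22 (0.26), Rps18 (0.29), Rpl19 (0.27) and Rps25 (0.56). Without KO_old 1 and WT_young 1 the median was 0.15.

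The brightest probe sets lay near the top of the array scale, where a scanner's response can flatten. For age in knock-out muscle the median difference was 0.27 over the 20 genes between log2 13 and 14, 0.25 over the next 9, and 0.18 over the 7 brightest. For genotype in old muscle these medians were 0.28, 0.24 and 0.18. Over the 36 bright genes, Spearman's rho between mean signal and difference was -0.503 for the genotype difference in old muscle and -0.330 for the age difference in the knock-out, as a description across genes on the same arrays. The part that saturation plays was not tested. Rps29 (0.10 and 0.06), Rps2 (0.07 and 0.02) and Rps14 (0.12 and 0.00) were among the bright genes with small differences in these comparisons.

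**Figure D4:**
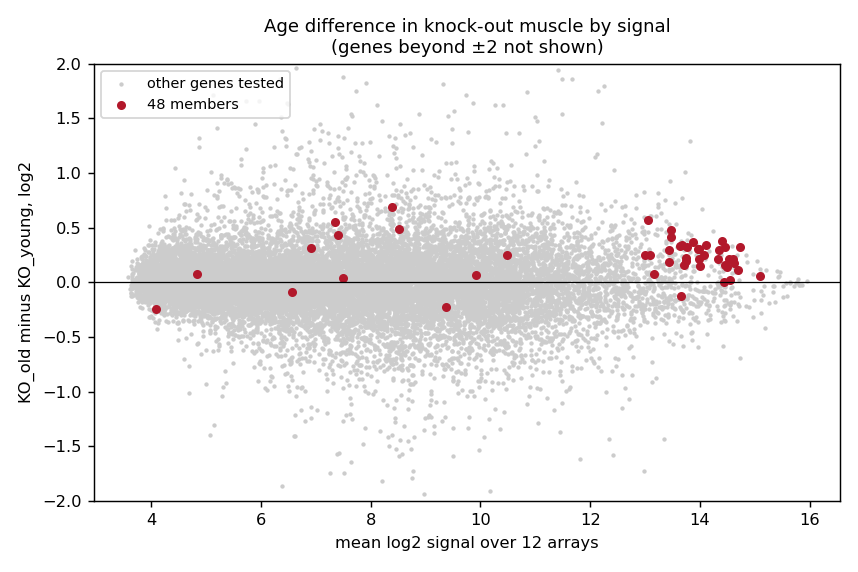
Difference between KO_old and KO_young (log2, vertical) against mean log2 signal over 12 arrays (horizontal) for all genes tested (grey) and the 48 ribosomal protein genes (red). Of the 36 red points at log2 13 and above, 35 lie above 0; 44 genes beyond ±2 are not shown.

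Probe sets with a high signal were nearly uniform in sign. The 48 genes had 104 probe sets, and 24 genes had more than 1. Of the 71 with a mean of at least log2 10, 70 had a positive genotype difference in old muscle (median 0.24), and 70 a positive age difference in the knock-out (median 0.23). Of the 33 under log2 10, 20 and 22 did. In a fit of all 45101 probe sets, 2 of the 104 were called higher for genotype in old muscle (0.169% of all), one of Rps18 (0.44) and one of Rpl7 (0.45), and 25 for age in knock-out muscle (3.87% of all).

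The 110 probe sets shared between a ribosomal protein gene and other loci were examined after the other results were known. Of them 103 had a positive difference for genotype in old muscle (median 0.23, 1 called higher), against 46% of all probe sets. For age in knock-out muscle 101 were positive (median 0.19, 17 called higher), against 49.8%. These cannot be assigned to a single gene.

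The genes that build and serve the ribosome were listed apart from the 48. Of 97 measured ribosome biogenesis factors, 17 rose and 0 fell with age in knock-out muscle (17.5% higher, against 4.85% of all genes higher and 5.41% lower), with a median of 0.15 against -0.00 over all genes. The count that rose was 8 without KO_young 3, and 11 without KO_young 1, without KO_young 2, or without KO_old 1 and WT_young 1 (where 1 fell). They included the rRNA-processing factors Ftsj3 (0.80 ± 0.14, adjusted p = 0.00455) and Rpf1 (0.57 ± 0.10, adjusted p = 0.00458), Wdr74 (0.44) and Rsl1d1 (0.56). Ftsj3 read 8.23, 8.17 and 8.10 in KO_young and 9.21, 9.02 and 8.66 in KO_old, without overlap. Ftsj3 (0.58) and Wdr74 (0.34) also rose with age in wild-type muscle, the 2 of 97 that did so (2.06%, against 1.65% of all genes). That count was 0 without any 1 of WT_young 2, WT_young 3 and the 3 WT_old arrays, 1 without WT_young 1 or any 1 of the KO_young arrays, 5 without KO_old 1 and 4 without KO_old 3. For genotype in old muscle 0 of 97 passed (median 0.18 against -0.02 over all genes, 82 above 0), and 9 were higher without KO_old 3. There the smallest p belonged to Brix1 (0.38 ± 0.09, adjusted p = 0.0598) and Ebna1bp2 (0.40 ± 0.09, adjusted p = 0.0598). Of 15 genes of RNA polymerase I and its factors, which transcribe rRNA, none passed in any comparison, with Polr1c nearest in old muscle (0.39 ± 0.09, adjusted p = 0.0598). Without KO_old 3, 2 of the 15 were higher in old knock-out than in old wild-type muscle, and 2 rose with age in the knock-out, where the count was 1 without KO_old 1 or without KO_old 2.

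Of 35 translation initiation factors, 9 rose and 0 fell with age in knock-out muscle (25.7% higher, against 4.85% of all genes, and a median of 0.24 against -0.00), 7 of them subunits of eIF3, the complex that holds the 40S subunit ready for mRNA. Eif3k had the smallest p (0.45 ± 0.07, adjusted p = 0.00295), followed by Eif3c (0.57), Eif3l (0.50) and Eif3h (0.47). Eif3k read 11.63, 11.61 and 11.61 in KO_young, and its 3 KO_old arrays exceeded all others, up to 12.13. Its WT_old arrays (11.89, 11.96 and 11.94) were also above its WT_young arrays (11.59, 11.63 and 11.58), and Eif3k (0.33) and Eif3c (0.41) rose with age in wild-type muscle (5.71% of the 35, against 1.65% of all genes). Of the 9 in knock-out muscle 5 were called without KO_young 2 or without KO_young 3, and 8 without KO_old 1 and WT_young 1. The 2 in wild-type muscle lost their calls without any 1 of the wild-type arrays, and 1 of them without KO_young 2 or KO_young 3; 5 were called without KO_old 1. For genotype in old muscle 0 of 35 passed (median 0.21 against -0.02 over all genes), and 1 was higher without KO_old 3.

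Among 17 other mRNAs with a TOP tract, 4 rose and 0 fell with age in knock-out muscle (23.5% higher, against 4.85% of all genes, and a median of 0.26 against -0.00): Fau, whose product carries the small-subunit protein eS30 (0.37 ± 0.07, adjusted p = 0.00963), Eif3h, the nucleolar chaperone Npm1 (0.50) and the histone chaperone Nap1l1 (0.68). Without KO_old 1, its highest array, Nap1l1 had 0.40 (adjusted p = 0.0559) and Npm1 0.38 (adjusted p = 0.0878). The count was 2 there and without KO_young 2 or KO_young 3. For genotype in old muscle 0 of 17 passed (median 0.21 against -0.02), and Fau came nearest (0.33 ± 0.07, adjusted p = 0.0536). Without KO_old 3, 2 of the 17 were higher. Of 17 elongation and termination factors 0 rose and 1 fell with age in knock-out muscle (5.41% of all genes were lower), Eif5a2 (-0.63), with a median of -0.04 against -0.00. Eif5a2 is 1 of 2 genes of this list under the 6.22 level, where signal is mostly background, and without KO_old 1 it had -0.47 (adjusted p = 0.116). Some genes stand in more than 1 of these lists. Of 23 genes of mTORC1 signalling to translation, 2 rose (Tsc1 0.35, an inhibitor of mTORC1, and Myc 0.91, a driver of ribosome biogenesis) and 1 fell (the kinase Rps6ka3, -0.50), with a median of 0.04 against -0.00. These are 8.7% of the list higher, against 4.85% of all genes. Without KO_old 1, Myc had 0.53 (adjusted p = 0.0175). The count that rose was 0 without KO_young 3, 1 without KO_young 1 or without KO_young 2, and 3 without KO_old 1 and WT_young 1.

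Markers of other cells and of RNA quality moved with some of these comparisons, and the part they play in the ribosomal protein differences was not tested. In RNA from whole muscle, fewer cells of a type and less RNA per cell cannot be told apart. The macrophage score, the mean over 14 markers of log2 signal minus the WT_young mean, was -0.27 to 0.67 in WT_old and 0.72 to 1.07 in KO_old. Of the 14, 1 was higher past the threshold in old knock-out than in old wild-type muscle, the lysosomal Cd68 (2.17 ± 0.41, adjusted p = 0.0256), and all 14 had a positive difference, although 2 lay under the 6.22 level. Cd68 had an adjusted p of 0.0600 without KO_old 1, 0.0828 without WT_old 1 and 0.127 without WT_old 3. The group means of the macrophage score were 0.12 in WT_old and 0.87 in KO_old, and those of the ribosomal protein median 0.042 and 0.298. In KO_old 1, KO_old 2 and KO_old 3 the macrophage scores were 0.72, 0.82 and 1.07. The ribosomal protein medians of these arrays were 0.36, 0.32 and 0.22. Their adipocyte scores, built in the same way, were 1.67, 0.94 and -1.01, and their red blood cell scores 1.28, 0.67 and 0.64. Any relation across these arrays was not tested.

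The adipocyte score over 7 markers was 1.67, 0.94 and -1.01 in KO_old and -0.96 to -0.33 in WT_old, 1 of the 7 lay under the 6.22 level, and 0 of 7 passed. Without KO_old 3, the array at -1.01, 5 of 7 adipocyte markers were higher in old knock-out than in old wild-type muscle, and 6 of 7 rose with age in the knock-out. The red blood cell score over 3 markers was 0.30 to 0.74 in WT_old and 0.64 to 1.28 in KO_old, 2 of the 3 lay under the 6.22 level, and 0 of 3 passed. For the same comparison 0 of 10 muscle fibre, 0 of 11 lymphocyte, 0 of 9 endothelial cell, 0 of 8 fibroblast, 0 of 9 satellite cell and 0 of 5 Schwann cell markers passed.

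Beside the age comparison in knock-out muscle, the macrophage score was -0.10 to 0.55 in KO_young, and 1 of 14 markers rose with age (Cd68, 2.87 ± 0.41, adjusted p = 0.00164). The fibroblast score was -0.05 to 0.76 in KO_young and -2.03 to -0.56 in KO_old, and 4 of 8 markers fell. This count was 3 without KO_old 1 and WT_young 1, and 3 to 5 without single arrays. The adipocyte score was -0.73 to 0.02 in KO_young (0 of 7 passed) and the red blood cell score 0.05 to 0.13 (2 of 3 rose, and 1 without any single array other than WT_old 2 or KO_old 3). Of the other lists, 1 of 11 lymphocyte markers rose (0 without KO_old 2, KO_old 3 or any of the KO_young arrays), 1 of 9 endothelial cell and 2 of 9 satellite cell markers fell (0 of the satellite cell markers without KO_old 1 or without KO_young 3), and 0 of 10 muscle fibre and 0 of 5 Schwann cell markers passed. The 18S rRNA control probes averaged 13.8 in WT_young, 13.7 in KO_young, 12.1 in WT_old and 12.4 in KO_old, lower in old than in young muscle in both genotypes. Their part in the ribosomal protein differences was not tested. The 5′ minus 3′ signal of Actb, an index of RNA integrity, averaged -0.289 in WT_young, -0.199 in KO_young, -0.129 in WT_old and -0.0143 in KO_old. That of Gapdh averaged -0.193, -0.171, -0.0270 and -0.0208 in the same order. For both, the KO_old arrays (-0.109 to 0.051 for Actb and -0.042 to 0.018 for Gapdh) lay above the KO_young arrays (-0.257 to -0.157 and -0.235 to -0.085) without overlap. The WT_old arrays (-0.140 to -0.112) also lay wholly below KO_old for Actb, by a small margin. For Gapdh the WT_old arrays (-0.043 to -0.013) overlapped KO_old. The part of these indices in the age and genotype differences was not tested.

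**Figure D5:**
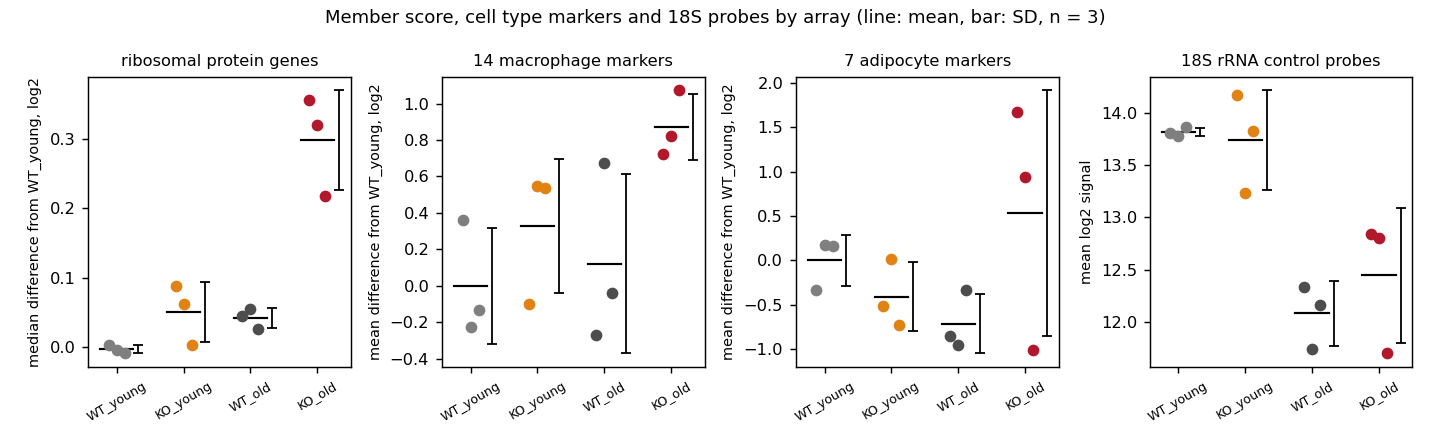
Ribosomal protein median, macrophage score, adipocyte score and mean 18S control signal in each array (points, log2), with the group mean as a line and the SD (n = 3) as a bar. KO_old arrays are highest for the ribosomal protein genes and the macrophage markers, spread from -1.01 to 1.67 for the adipocyte markers, and overlap WT_old in 18S signal.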

How the data were processed

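Total RNA was extracted with Trizol, labelled with biotin and hybridised to Affymetrix arrays, per the labels' protocols. The deposited values are log2 signals. The authors summarised probes by RMA with affy, whose version is not given, per the submitters' processing notes. The values were used without further normalization. Where several probe sets named one gene alone, the one with the highest mean over 12 arrays stood for it.

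The fit of the 4 group means used limma 3.58.1 under R 4.3.3 (8 residual and 4.15 prior degrees of freedom), and Benjamini-Hochberg adjustment ran over 18194 genes and a threshold of 0.05. Whether each array held a separate animal is not stated in the labels. The p-values then reflect only how these samples vary, and part of that may be technical. With 3 arrays per group, precision is limited by their number. The procedure was also run on simulated data in which each gene varied independently, so it did not cover genes that vary together. The outcome is not given here.

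The members and gene lists were chosen with earlier results of these data known. The lists were ribosome biogenesis, RNA polymerase I, initiation, elongation, TOP mRNAs, mTORC1 signalling and cell type markers (muscle fibre, macrophage, lymphocyte, adipocyte, endothelial cell, fibroblast, satellite cell, Schwann cell and red blood cell). Named were genes past the threshold or the 5 with the smallest p, paralogues, stalk genes, Rpsa and Rps6, the 3 highest and 3 lowest signals, the largest differences, and up to 4 genes per list. Rps2, Rps14 and further genes of a count of 5 or fewer were named after their values were seen. Alternatives changed the probe set, the features tested, the signal filter, the normalization, the variance model, array weights, the arrays fitted and the threshold.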

Additional observations from a re-analysis of the deposited data

Results flagged for a closer look

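Rps24, a small-subunit protein with one of the highest signals of the group, had its age groups apart in opposite directions in the 2 genotypes. WT_old (14.61, 14.63 and 14.62) lay wholly below WT_young (14.67, 14.66 and 14.63), a difference of -0.03 ± 0.07, and KO_old (14.78, 14.85 and 14.75) wholly above KO_young (14.68, 14.72 and 14.64), a difference of 0.11 ± 0.07. The difference between the age effects was 0.147 and did not pass the limma interaction test (adjusted p = 0.871). Other probe set choices gave Rps24 an age difference in wild-type muscle of 0.10 (mean of its probe sets) and 0.68 (without cross-reacting probe sets).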

How the results depend on the processing

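Counts of the 48 genes past the threshold moved with the settings, and medians moved little. For genotype in old muscle the count was 1 as reported, 2 with the mean of probe sets, without cross-reacting probe sets, with arrays centred on their median or after quantile normalization again, 7 among brighter genes, 16 with trended and robust variances and 15 at an adjusted p of 0.10. It was 0 with every probe set tested, with array weights, with only the groups compared (32 at an unadjusted p under 0.05) and without KO_old 1 and WT_young 1. With only the groups compared 0 of all genes passed, so none of the 48 could, and the share matching the 32 was not counted. Calls over all genes, in either direction, were 241 as reported, 388 among brighter genes and 800 at an adjusted p of 0.10. They were 389 with trended and robust variances, 221 with array weights and 176 without KO_old 1 and WT_young 1. Leaving out single arrays gave 0 to 8 of the 48 (28 to 644 of all genes), with Rps19 past the threshold in 1 of these 12 fits. For age in knock-out muscle the count was 15 as reported (1868 of all genes) and 23 at an adjusted p of 0.10 (2946). It was 9 without KO_old 1 and WT_young 1 (1341), 0 with only the groups compared (617) and 4 to 16 without single arrays (833 to 1998). For age in wild-type muscle the count was 0 (659 of all genes), with 1 under trended and robust variances (743) and 3 under array weights (2451). In that weighting WT_young 3 had the highest weight (4.727), and the others had 0.2816 to 1.696. For genotype in young muscle and the interaction the count of the 48 was 0 in the settings run. All calls among the 48 were rises.

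The median for age in knock-out muscle was 0.24, with 0.30 without cross-reacting probe sets (43 of the genes) and 0.19 to 0.26 without single arrays. That of the interaction was 0.20, with 0.15 without KO_old 1 and WT_young 1. The median for genotype in old muscle stayed between 0.22 and 0.26 without single arrays. The causes were not tested.

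Of the values of single genes under these settings, 83 gained a call, 75 lost one and the rest kept their side of the threshold. Among the rest, 22 were called in neither fit and changed sign by more than the reported SE, and 5257 did not. The interaction has no value with only the groups compared. No paired analysis was possible because the labels carry no replicate numbers. Signals near the top of the scale and under log2 6.22 can be compressed, and the part of this was not tested. The gene lists were refitted without single arrays after the data were seen.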
